A study of Arabidopsis thaliana with 12 samples.

Results

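The genes described here gave a higher signal in roots of the Arabidopsis mutant sahy1 than in any other root sample of the study. A probe set, the group of short array probes that measures 1 transcript, was a member when its lowest signal over the 3 sahy1 arrays was at least 100 and at least 1.5 times the highest signal over the 9 other arrays. Of 22746 probe sets without the array's own controls, 89 passed both thresholds. Named genes of cytosolic ribosomal proteins, tRNA synthetases and class III peroxidases were then left out. So were the single genes GSTU25, NDB4 (AT2G20800), AT2G04050, AT2G18720 and AT2G03130. Together these made 12 probe sets, which left 77 members. The rule also bars UDP-glycosyltransferases, cytochromes P450, xyloglucan endotransglucosylases and alpha-expansins, but no named gene of these passed both thresholds. The members were chosen by the signals of sahy1 and of the other arrays, so the height of sahy1 over the rest is a description and was not tested. Of the 77, 36 pair with 1 gene in the platform table and are named, 1 pairs with several genes, and 40 pair with none, so that genes of the families left out may remain among these.

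The 4 groups had 3 arrays each, from separate biological replicates. The group sahy1 is a T-DNA insertion mutant of SAHY1 (AT2G01640), the allele sahy1-1 in the study's methods, with the insertion in the third exon. SAHY1OE is a single line, 4-1, that overexpresses SAHY1, and the labels do not name its promoter. Col-7 is the wild type of SAHY1OE, and Col-0 is the wild type of sahy1. All were 12-day-old roots of seedlings kept for 5 days on basal medium and for 7 days on fresh medium, with no further treatment. A whole root mixes many cell types, so more cells of a type and more transcript per cell cannot be told apart in these values.

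SAHY1 is a nucleolar protein, and the study concerns the processing of precursor ribosomal RNA. Root cells make ribosomes in the nucleolus, where ribosomal RNA is cut out of a long precursor and joined with ribosomal proteins. Among the named members are several families of secreted proteins. CAP proteins, the family of the pathogenesis-related protein PR-1, thaumatin-like proteins of the PR-5 type and beta-1,3-glucanases of the PR-2 type are known from plant defence. Pectin methylesterases, polygalacturonases and pectate lyases modify or cleave the pectin of cell walls. The family of each locus is given from general knowledge of its protein and not from the array files.

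The SAHY1 probe set itself read 65.5, 7.00 and 143 in sahy1 (replicates 1 to 3, as everywhere below), 20570, 20070 and 20790 in SAHY1OE, 284, 259.5 and 252 in Col-7 and 451, 258 and 336 in Col-0. All 3 sahy1 arrays were below, and all 3 SAHY1OE arrays above, every wild-type array. Where its probes lie relative to the insertion was not determined. Values are MAS5 signals, a linear brightness in arbitrary units with the trimmed mean of each array at 500. Levels of different probe sets are not compared. A check of the root label could use only 1 of 13 root cell type markers, the root hair expansin EXPA7, since 12 have no probe set paired with 1 gene. EXPA7 had signals of 289, 417 and 288 in sahy1, 708, 724 and 758 in SAHY1OE, 619, 813 and 766 in Col-7 and 589, 704 and 747 in Col-0, all above the 40th percentile of their arrays. None of the 6 green shoot markers could be read.

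**Figure D1:**
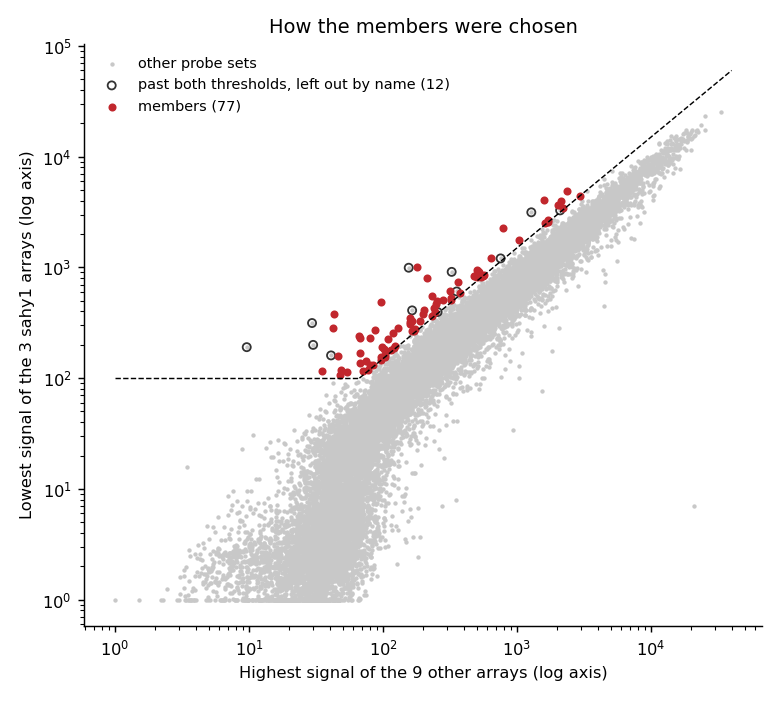
Each point is a probe set, with its highest signal on the 9 SAHY1OE, Col-7 and Col-0 arrays on the x axis and its lowest signal on the 3 sahy1 arrays on the y axis (MAS5 signal, log axes, signals under 1 drawn at 1). The dashed lines are the thresholds of 100 and of 1.5 times, and the 77 members lie above both, with 12 probe sets left out by name as open circles.

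The margin, the lowest sahy1 signal over the highest of the other 9, ran from 1.5 to 8.80 in the members with a median of 1.82. Of the genes left out, NDB4 at 19.8 and AT2G04050 at 10.6 lay above this range. The margin was at least 2 in 27 members, at least 3 in 10 and at least 5 in 4. The scatter of highest against lowest signals shows a continuous cloud across the ratio threshold, not a gap. Just inside it were AT2G37240, a thioredoxin-fold protein, at 1.502, the unnamed probe set 252711_at at 1.503 and AT5G47550, a cystatin, at 1.505. AT1G05280 at 1.496 and the unnamed 253757_at at 1.486 and 252639_at at 1.479 were just outside. With the same 2 thresholds and no family left out, another group in place of sahy1 gave 2 probe sets for SAHY1OE, 2 for Col-7 and 27 for Col-0, against 89 for sahy1. SAHY1OE and Col-7 lay close, with 2 of 13834 probe sets called higher and 1 lower in SAHY1OE (calls are defined below). A probe set high in both fails the rule for either, so their counts are no reference for sahy1.

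The members ranged from those near background outside sahy1 to those already well above it there. Near background here means signals, or their mean, below the 40th percentile of the array, and no detection call was used. On all 9 other arrays, 28 members were below the 40th percentile of the array, a signal of 110 to 122, and 13 of these are named. By contrast, 35 members were at or above that percentile on all 9, and 14 were mixed. The coefficient of variation of the 3 sahy1 arrays had a median of 11.8% over the members (1.71% to 47.4%), and since the rule used the lowest of these arrays it is given as a description only. The highest sahy1 array was replicate 1 in 32 members, replicate 2 in 29 and replicate 3 in 16. The highest of the other 9 arrays was a Col-0 array in 30 members, a SAHY1OE array in 29 and a Col-7 array in 18.

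**Figure D2:**
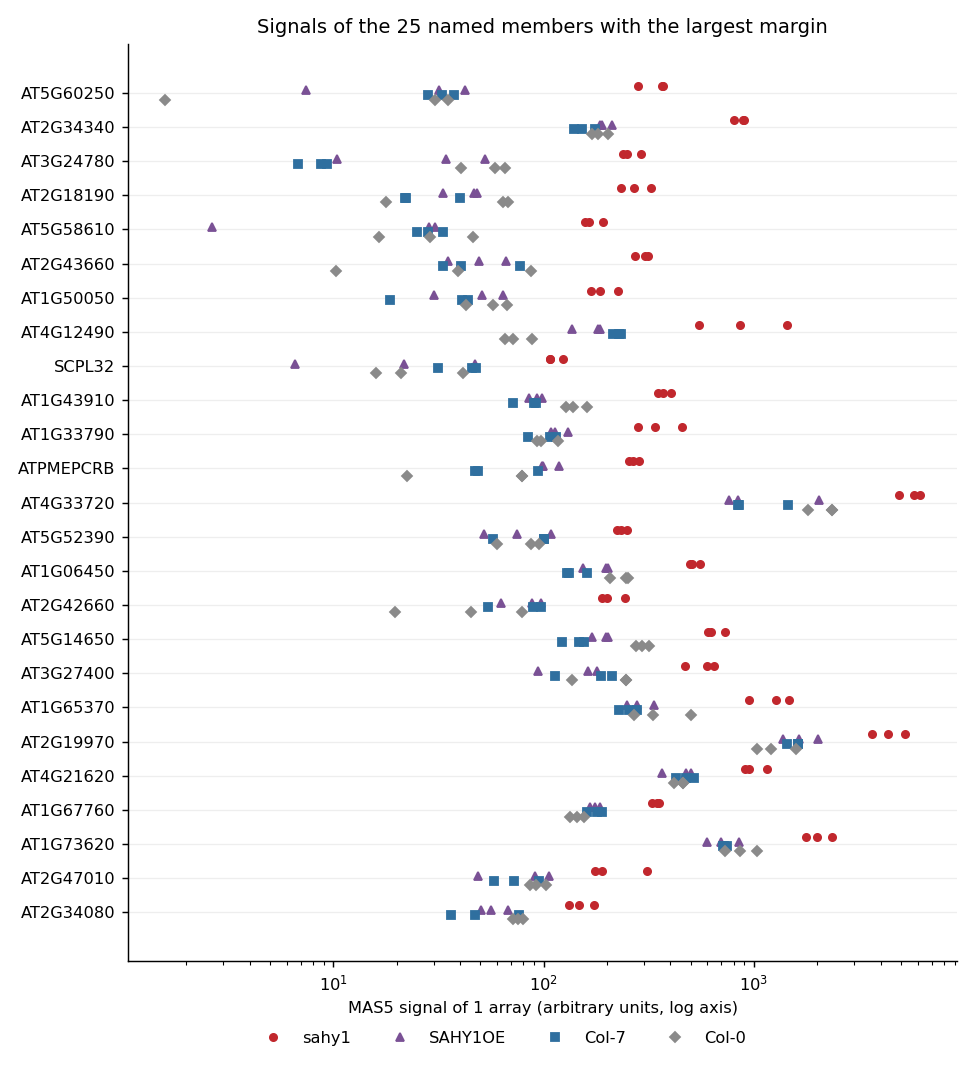
The x axis gives the MAS5 signal of each of the 12 arrays (arbitrary units, log axis) for the 25 named members with the largest margin, ordered down the page by margin. Each point is 1 array; the 3 red points of sahy1 lie to the right of the other 9 in every row, as the rule demands, and AT4G12490 and AT3G24780, among others, also separate Col-7 from Col-0.

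Of the 36 named members, 4 are CAP proteins. AT4G33720 had signals of 5790, 6146 and 4909 in sahy1, 836, 763 and 2048 in SAHY1OE, 837, 846 and 1457 in Col-7 and 2358, 1807 and 2346 in Col-0. Its lower groups were uneven, with SAHY1OE replicate 3 above every Col-7 array and within the range of Col-0. AT2G19970 gave 5212, 3656 and 4341 in sahy1, 2017, 1630 and 1370 in SAHY1OE, 1615, 1626 and 1436 in Col-7 and 1203, 1591 and 1033 in Col-0. Outside sahy1 its groups overlapped each other. AT1G50050 was faint elsewhere, with 167, 185 and 226 in sahy1, 64.4, 30.0 and 50.7 in SAHY1OE, 43.7, 18.6 and 40.9 in Col-7 and 42.8, 67.2 and 57.6 in Col-0, and all 9 other arrays were below the 40th percentile. The last of the 4, PR-1-LIKE (AT2G19990), had a margin of only 1.59 and averaged 618 ± 107 in sahy1, 266 ± 60.4 in SAHY1OE, 230.1 ± 17.4 in Col-7 and 236 ± 26.6 in Col-0 (n = 3 arrays each, ± SD). On the log2 scale the sahy1 means of these genes were higher by 1.38 against Col-0 and 2.47 against Col-7 for AT4G33720, and by 1.80 against Col-0 and 1.48 against Col-7 for AT2G19970.

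Other secreted proteins of defence-related families were also members. The thaumatin-like AT1G73620 had signals of 2364, 1775 and 2002 in sahy1, 596, 699 and 849.5 in SAHY1OE, 747, 709 and 724 in Col-7 and 1032, 728 and 858 in Col-0. Its 3 lower groups lay close together. The beta-1,3-glucanase-type AT1G32860 averaged 452 ± 56.4 in sahy1, 212 ± 14.4 in SAHY1OE, 196 ± 14.8 in Col-7 and 210.0 ± 35.2 in Col-0 (n = 3 arrays each, ± SD). Jacalin-related lectins bind sugars, and AT1G33790 of this family read 457, 281 and 338 in sahy1, 130.3, 114 and 109 in SAHY1OE, 84.7, 107 and 114 in Col-7 and 117, 97.7 and 93.5 in Col-0. The sahy1 arrays of this lectin were spread, with replicate 1 well above the others, and the 9 other arrays overlapped. A second lectin, AT1G52050, averaged 3666 ± 329 in sahy1, 1886 ± 181 in SAHY1OE, 1866 ± 66.4 in Col-7 and 2113 ± 162 in Col-0 (n = 3 arrays each, ± SD). AT4G12490 belongs to the AZI1 and EARLI1 group of small lipid-transfer-type cell wall proteins, and it had signals of 1439, 863 and 551 in sahy1, 185, 182 and 136 in SAHY1OE, 229, 234 and 213 in Col-7 and 88.4, 65.5 and 71.7 in Col-0. Its 4 groups did not overlap at all, in the order sahy1, Col-7, SAHY1OE and Col-0, and sahy1 replicate 1 was far above replicate 3. A relative of that group, AT2G45180, averaged 2705 ± 171 in sahy1, 1418 ± 60.4 in SAHY1OE, 1528 ± 124 in Col-7 and 1255 ± 157 in Col-0 (n = 3 arrays each, ± SD).

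The members described next are of cell wall families, and this grouping was made for description and not tested. The pectin methylesterase ATPMEPCRB (AT4G02330) read 266, 285 and 254 in sahy1, 98.3, 98.9 and 119 in SAHY1OE, 93.9, 47.1 and 48.5 in Col-7 and 78.7, 78.7 and 22.5 in Col-0. All 3 SAHY1OE arrays exceeded the Col-7 and Col-0 arrays of this gene. For the polygalacturonase-like AT5G14650 the signals were 606, 623 and 732 in sahy1, 202, 198 and 170.4 in SAHY1OE, 122, 148 and 156 in Col-7 and 316, 293 and 274 in Col-0. Here the 4 groups were fully separated, with Col-0 next below sahy1 and Col-7 lowest. The pectate lyase-like AT3G27400 gave 648, 468 and 599 in sahy1, 180.2, 162 and 94.3 in SAHY1OE, 211, 187 and 113 in Col-7 and 247, 247 and 137 in Col-0, and replicate 3 was the lowest array in each of the 3 lower groups. AT2G43660, with an X8 carbohydrate-binding domain, had 312, 303 and 272 in sahy1, 35.2, 49.4 and 66.1 in SAHY1OE, 77.4, 33.2 and 40.4 in Col-7 and 86.9, 39.1 and 10.3 in Col-0. It was near background outside sahy1, where its groups overlapped.

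A pair of AAA-ATPases, ring-forming proteins that use ATP to remodel other proteins, were members. AT2G18190 had signals of 323, 232 and 268 in sahy1, 48.3, 46.5 and 33.1 in SAHY1OE, 39.9, 22.1 and 21.9 in Col-7 and 17.8, 67.9 and 63.9 in Col-0. Apart from sahy1 all its arrays were below the 40th percentile and the groups overlapped. AT1G43910 read 404, 371 and 349 in sahy1, 85.1, 98.3 and 92.7 in SAHY1OE, 92.5, 71.8 and 90.0 in Col-7 and 138, 160.3 and 127 in Col-0, with Col-0 above SAHY1OE and Col-7 on every array. The chaperonin-type AT1G67760 gave 329, 346 and 354 in sahy1, 175, 185 and 167 in SAHY1OE, 161, 190.4 and 179 in Col-7 and 156, 133 and 145 in Col-0. Its sahy1 arrays were close together, and Col-0 was the lowest group.

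AT5G60250, a RING-type zinc finger protein, had the largest margin of the named members, 6.62, with signals of 370.4, 281 and 367 in sahy1, 31.8, 42.5 and 7.45 in SAHY1OE, 37.5, 32.9 and 28.2 in Col-7 and 34.9, 1.59 and 30.5 in Col-0. No array outside sahy1 exceeded 42.5 for this gene, and all 9 were below the 40th percentile. AT5G58610, with a PHD finger, a fold that reads histone tails, gave 164, 158 and 191 in sahy1, 2.64, 30.6 and 28.6 in SAHY1OE, 25, 33.4 and 28.3 in Col-7 and 28.9, 16.4 and 46.4 in Col-0. That gene too was near background outside sahy1. The CAF1-type deadenylase AT1G06450, of a family that shortens the poly(A) tails of messenger RNA, had 510.4, 495 and 557 in sahy1, 202, 154 and 199 in SAHY1OE, 129, 132 and 161 in Col-7 and 208, 252 and 246 in Col-0. Its Col-0 arrays were above those of the other 2 lower groups. The MYB-like AT2G42660 read 243, 189 and 200 in sahy1, 62.8, 97.6 and 87.6 in SAHY1OE, 88.8, 54.6 and 97.3 in Col-7 and 78.6, 44.9 and 19.6 in Col-0. Its 3 lower groups overlapped, with Col-0 replicate 3 lowest. AT3G15460, a homologue of the yeast ribosome assembly factor BRX1, had a margin of 1.65 and averaged 539 ± 9.19 in sahy1, 212 ± 40.6 in SAHY1OE, 225 ± 31.4 in Col-7 and 286 ± 40.8 in Col-0 (n = 3 arrays each, ± SD). The OB-fold protein AT2G40780 averaged 203 ± 7.22 in sahy1, 110.5 ± 1.13 in SAHY1OE, 89.0 ± 16.8 in Col-7 and 106 ± 15.7 in Col-0 (n = 3 arrays each, ± SD), a small and even difference.

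The others of the 25 named members with the largest margins belonged to varied families. AT2G34340, of the DUF584 family, had signals of 808, 892 and 887 in sahy1, 190.5, 185 and 212 in SAHY1OE, 139.5, 152 and 175 in Col-7 and 169, 182 and 203 in Col-0. It was expressed in every group and its sahy1 arrays were close together. AT1G65370, with a TRAF-like domain, gave 948, 1461 and 1280 in sahy1, 250.3, 336 and 277 in SAHY1OE, 254, 229 and 277 in Col-7 and 331, 268 and 503 in Col-0. The highest array outside sahy1 was Col-0 replicate 3. AT4G21620, a glycine-rich protein, read 908, 1150 and 943 in sahy1, 474, 500.1 and 364 in SAHY1OE, 477, 519.8 and 424 in Col-7 and 459, 459 and 417 in Col-0. The lower groups of this gene overlapped. AT5G52390, of the PAR1 family, had 250.2, 224 and 232 in sahy1, 108, 74.7 and 52.2 in SAHY1OE, 100.4, 57.7 and 101 in Col-7 and 59.9, 87.1 and 94.7 in Col-0. Its lower groups overlapped. The papain-type cysteine proteinase AT2G34080 gave 148, 174 and 132 in sahy1, 50.4, 67.7 and 56.4 in SAHY1OE, 36.4, 47.0 and 76.1 in Col-7 and 79.6, 71.9 and 75.8 in Col-0. Its Col-0 arrays were above those of SAHY1OE and overlapped those of Col-7. SCPL32 (AT1G61130), a serine carboxypeptidase-like protein, read 108, 124 and 108 in sahy1, 47.4, 21.6 and 6.57 in SAHY1OE, 47.6, 31.5 and 45.6 in Col-7 and 41.1, 21.0 and 15.9 in Col-0. It did not pass the filter on low signals and was not tested in any comparison. AT3G24780 and AT2G47010 are named without a role. AT3G24780 had 238, 248 and 290.4 in sahy1, 52.9, 34.4 and 10.4 in SAHY1OE, 6.79, 8.73 and 9.36 in Col-7 and 40.3, 58.8 and 65.8 in Col-0, with Col-7 lowest and clear of Col-0. Outside sahy1 all its arrays were below the 40th percentile. AT2G47010 read 309, 175 and 189 in sahy1, 91.2, 48.9 and 106 in SAHY1OE, 72.3, 95.3 and 58.0 in Col-7 and 92.0, 103 and 86.5 in Col-0, and its sahy1 mean rests in part on replicate 1.

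The 11 named members with the smallest margins (1.5 to 1.65) include, besides those above, the GDSL lipase AT3G16370, the F-box protein AT3G20710 and AT2G18600 of the ubiquitin-conjugating enzyme family. The cystatin AT5G47550, of a family that inhibits papain-type proteinases, averaged 940.5 ± 80.9 in sahy1, 486 ± 66.9 in SAHY1OE, 502 ± 32.1 in Col-7 and 494 ± 76.0 in Col-0 (n = 3 arrays each, ± SD).

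The members without a single gene had margins from 1.5 to 8.80, with a median of 1.82, beside 1.5 to 6.62 and 1.88 in the named members. The largest margin of all members belonged to 256852_at, with signals of 376, 425 and 415 in sahy1, 12.6, 10.5 and 26.1 in SAHY1OE, 42.8, 6.97 and 10.0 in Col-7 and 27.1, 39.1 and 10.4 in Col-0. Its 9 other arrays were near background. Next came 263231_at with 1711, 1576 and 1010 in sahy1, 82.1, 114 and 61.0 in SAHY1OE, 166, 156 and 179.6 in Col-7 and 118, 126 and 148 in Col-0. The groups below sahy1 did not overlap for it, in the order Col-7, Col-0 and SAHY1OE. The third was 256459_at with 486, 651 and 737 in sahy1, 96.5, 52.3 and 5.01 in SAHY1OE, 35.4, 57.9 and 66.9 in Col-7 and 38.8, 70.3 and 53.4 in Col-0. The probe set 253660_at was above the 40th percentile on all 12 arrays, with 4087, 5696 and 4463 in sahy1, 1564, 1595 and 1441 in SAHY1OE, 1169, 1420 and 1559 in Col-7 and 1105, 1387 and 1307 in Col-0.

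In the fit across all probe sets, 71 of the 77 members had passed the filter on low signals, which needed all 3 arrays of at least 1 group at the 40th percentile, and 6 had not. Of the 71, 29 had a mean signal on the 9 other arrays below the mean 40th percentile of those arrays, and the sahy1 arrays alone could bring such a member past the filter. The other 42 had a mean at or above it. A call needed a limma adjusted p under 0.05 and a fold above 2. Because the rule used these contrasts, the following values only describe the members. Of the 71, 58 were called higher in sahy1 against Col-0 (2.37% of all 13834 probe sets), 61 against Col-7 (1.34%) and 61 against SAHY1OE (1.15%). The median difference was 1.47 on the log2 scale against Col-0 (0.77 to 4.82), 1.56 against Col-7 (0.82 to 4.97) and 1.48 against SAHY1OE (0.83 to 4.74), and the upper ends of these ranges are set against signals near background. These comparisons share the sahy1 arrays. For 48 of the 71 the differences against Col-0 and against Col-7 were within 0.5 of each other.

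The comparison of SAHY1OE with Col-7 asks whether the members moved when SAHY1 was raised. The rule set no order between these groups, but it held all their arrays below the sahy1 arrays. A gene raised in SAHY1OE to the level of sahy1 could therefore not be a member. This limits what a count of members higher in SAHY1OE can show. No member was called with limma, 0 of 71 in either direction, beside 0.0145% of all probe sets called higher and 0.00723% called lower. Of the 42 members with a mean at or above the 40th percentile outside sahy1, 0 were called as well. Before adjustment 5 of the 42 were higher and 1 lower at p under 0.05. Of the 13585 probe sets of the same minimum, 274 were higher and 347 lower. Over all 71 members the counts before adjustment were 8 and 3, and 3 and 2 with the methods' unpaired test. For these no count over all probe sets tested was made. The median difference of the 42 was 0.08 on the log2 scale, beside -0.00 over the 13585 probe sets of the same minimum, and 26 (61.9%) were above 0, beside 49.3%. Without SAHY1OE replicate 3, 1 member was called instead of 0. This was AT3G24780, with 52.9, 34.4 and 10.4 in SAHY1OE and 6.79, 8.73 and 9.36 in Col-7. All these arrays were below the 40th percentile, so no size is given.

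Between Col-7 and Col-0, the wild types, 5 of the 71 members were called, 2 higher in Col-7 (1.27% of all probe sets) and 3 lower (0.535%). The 71 include members that sahy1 alone could bring past the filter, and the rule held both groups below sahy1. Of the 42 members, 2 were called higher (1.16% of the 13585 probe sets) and 1 lower (0.464%). The other 2 calls were of members near background. AT4G12490 was higher, with 229, 234 and 213 in Col-7 against 88.4, 65.5 and 71.7 in Col-0, a log2 difference of 1.59 (standard error 0.26, limma adjusted p = 0.002), and its Col-0 arrays were below the 40th percentile. The unnamed 254805_at was also higher, with 1628, 1696 and 1242 in Col-7 and 493, 643 and 516 in Col-0 (1.46, limma adjusted p = 5.1e-05). Neither gene's groups overlapped. AT5G14650, the polygalacturonase-like gene, was lower at 122, 148 and 156 in Col-7 and 316, 293 and 274 in Col-0 (-1.06, limma adjusted p = 0.000246). The unnamed 260408_at had 54.3, 78.8 and 46.3 in Col-7 and 119.5, 153 and 158 in Col-0 (-1.29, limma adjusted p = 0.0131), with its Col-7 arrays below the 40th percentile. AT3G24780, with 6.79, 8.73 and 9.36 in Col-7 and 40.3, 58.8 and 65.8 in Col-0, was below that percentile on every array of both groups and passed the filter through sahy1 alone, so its call is not read as a difference. Before adjustment, 9 of the 42 were higher and 6 lower at p under 0.05. Of the 13585 probe sets, 1019 were higher and 1006 lower. The median difference of the 42 was 0.04 on the log2 scale, beside -0.01 over the 13585 probe sets, and 22 (52.4%) were above 0, beside 48.5%. With the methods' unpaired test none of the 71 was called, although its unadjusted p was under 0.05 for 6 higher and 9 lower members. No such count was made over all probe sets. The call of AT5G14650 was lost without Col-7 replicate 1 (-0.95). That of 260408_at was lost on leaving out Col-0 replicate 2 (-1.24), Col-0 replicate 3 (-1.21) or Col-7 replicate 3 (-1.12).

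**Figure D3:**
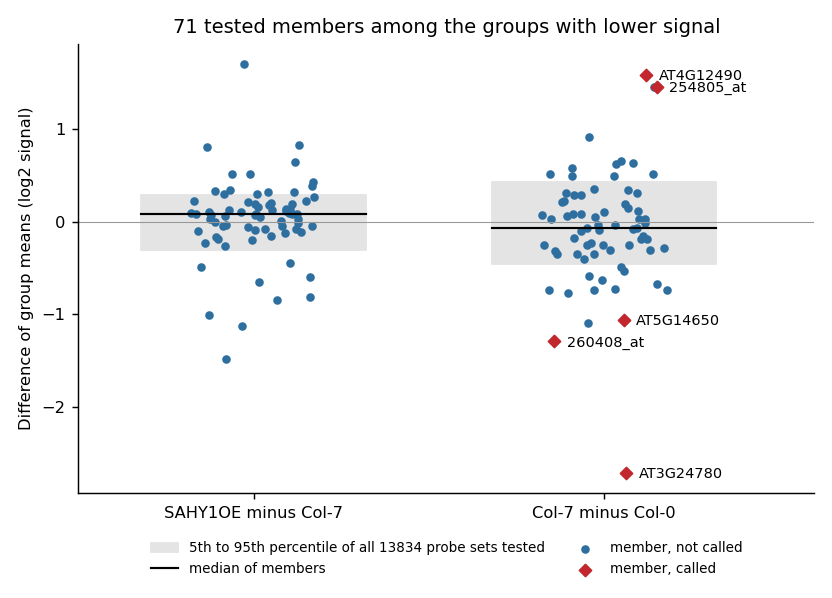
The y axis gives the difference of group means on the log2 scale for the 71 members tested, 29 of them near background in these groups, SAHY1OE minus Col-7 on the left and Col-7 minus Col-0 on the right. Points are members, red diamonds are the 5 called members, black lines are the medians (0.08 and -0.07), and grey boxes span the 5th to 95th percentile of all 13834 probe sets tested; the Col-7 arrays enter both comparisons.

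The families of some members were then read as a whole, from lists chosen after the members were seen. Of 22 listed CAP genes, 19 had a probe set and 11 passed the filter, 4 of them members. Of the 7 others 3 were called lower in sahy1 against Col-0 (1.76% of all probe sets) and none higher, but the rule had taken genes high in sahy1 out of these 7. With a fold under 2, AT5G66590 was higher against Col-0 (0.60, limma adjusted p = 0.0138), its sahy1 arrays above every other array. AT4G07820 was lower against Col-0 (-0.49, limma adjusted p = 0.0251), also with a fold under 2. AT4G33730, next to AT4G33720 in gene number, had signals of 121, 121 and 119 in sahy1, 247, 242 and 381 in SAHY1OE, 381, 347 and 370.5 in Col-7 and 378, 367 and 385 in Col-0 and was lower in sahy1 than in Col-0 (-1.65 on the log2 scale, limma adjusted p = 7.62e-06). AT4G30320 was lower at 106, 115 and 109 in sahy1 and 343, 288 and 335 in Col-0 (-1.54, limma adjusted p = 5.34e-05). AT4G25790 was lower as well (-1.34, limma adjusted p = 0.000448). No sahy1 array of these 3 genes reached an array of another group, and all 3 were also called lower against Col-7 (1.02% of all probe sets).

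**Figure D4:**
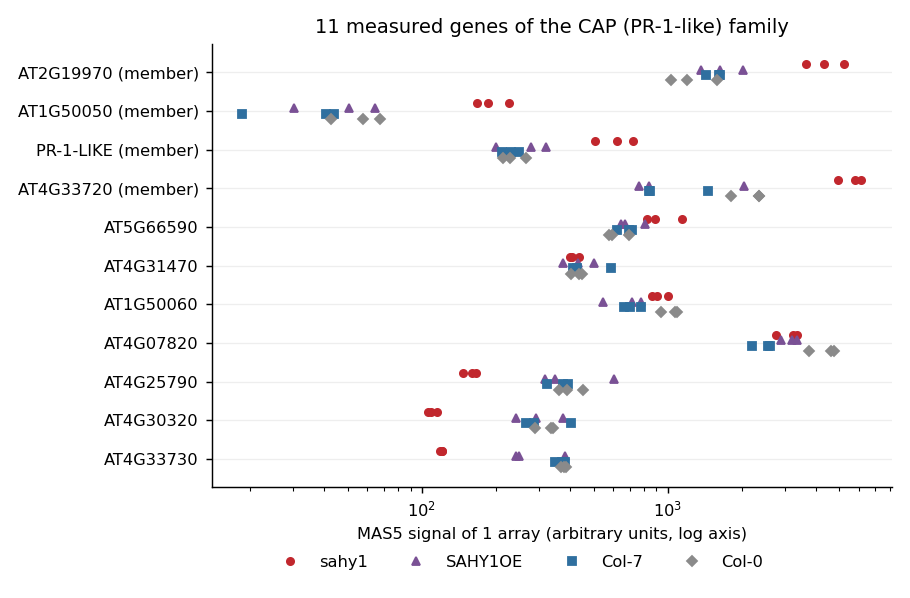
The x axis gives the MAS5 signal of each of the 12 arrays (arbitrary units, log axis) for the 11 CAP genes that passed the filter, ordered by the log2 difference of sahy1 and Col-0. The sahy1 points lie right of all others in the 4 members at the top and in AT5G66590 below them. They lie left of all others in the 3 genes at the bottom.

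Of the other families, 8 jacalin-related lectins that are no members passed the filter. AT5G35940 was called lower against Col-0, with 100, 146 and 121 in sahy1, 264, 194 and 170.4 in SAHY1OE, 353, 178 and 185 in Col-7 and 1035, 1008 and 924 in Col-0 (log2 difference -3.03, limma adjusted p = 1.95e-06), and not against Col-7 (-0.91). Its Col-0 arrays stood above every other array. With a fold under 2, the lectin AT1G52070 was higher in sahy1 against Col-0 (0.43, limma adjusted p = 0.0255) and Col-7 (0.63, limma adjusted p = 0.00453). All its sahy1 arrays were above every other array. The lectin AT2G25980 was lower against Col-0 (-0.65, limma adjusted p = 0.0469), also with a fold under 2. In the AZI1 and EARLI1 group 3 others passed the filter. AT4G12500, beside AT4G12490 in gene number, was called higher against Col-0 (1.63, limma adjusted p = 0.00111), with 498, 292 and 222 in sahy1, 231, 148 and 203 in SAHY1OE, 385, 278 and 222 in Col-7 and 111, 85.6 and 115 in Col-0, and its difference against Col-7 was 0.15. As in AT4G12490, its Col-7 arrays were above its Col-0 arrays. AT1G62510 of this group was called lower against Col-7 alone (-1.20), with -0.70 against Col-0. None of the 12 other pectate lyase-like genes, 2 other cystatins or 4 other AAA-ATPases measured was called in either comparison. Some differed with a fold under 2. The AAA-ATPase AT5G17760 was higher in sahy1 by 0.84 against Col-0 and 0.95 against Col-7 (limma adjusted p = 0.00168 and 0.00141). The 12 pectate lyase-like genes had a median of 0.23 against Col-0 and 0.29 against Col-7. Of these, AT1G67750 was higher (0.76 and 0.70, limma adjusted p = 0.000689 and 0.0023). AT1G04680 was higher too (0.42 and 0.37, limma adjusted p = 0.0159 and 0.036). AT3G53190 was higher against Col-0 (0.89, limma adjusted p = 0.000816), with 0.41 against Col-7 (limma adjusted p = 0.0809). AT3G24670 was lower (-0.60 and -0.74, limma adjusted p = 0.00808 and 0.00394). Here too the genes highest in sahy1 had been taken out as members. Probe sets of close relatives may share transcripts, and this was not tested.

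Lists of known pathways held no member. They covered stress, hormone, nutrient and cell cycle genes in 19 lists, but the platform table limits them: of 224 genes 35 had a probe set paired with 1 gene and 21 passed the filter. The rule limits them too: NDB4, AT2G04050 and GSTU25 passed both thresholds but were left out by name. None of these could be a member, and none is on a list. In 7 lists, DNA damage, nitrate, jasmonate, pathogen response and DNA silencing among them, no gene passed. Of all 13834 probe sets tested 71 are members, so 21 genes could easily hold none. Of the 21, 1 was called higher in sahy1 against Col-0 (2.37% of all probe sets) and 2 lower (1.76%), with a median of 0.01. GH3.3, which joins amino acids to auxin, was higher at 162, 244 and 206 in sahy1 and 48.4, 100.5 and 95 in Col-0 (1.38, limma adjusted p = 0.0176), and 0.55 against Col-7 was not called. Its Col-0 arrays were below the 40th percentile. AT5G43450, listed with the mitochondrial dysfunction response, was lower at 68.3, 30.7 and 41.0 in sahy1 and 166, 122 and 124 in Col-0 (-1.63, limma adjusted p = 0.00915), and -0.88 against Col-7 was not called. Its sahy1 arrays were below that percentile. EXPA7 was lower against Col-0 (-1.05, limma adjusted p = 0.000593) and against Col-7 (-1.16, limma adjusted p = 0.000568). Its sahy1 arrays were all below the 9 others. The call of GH3.3 was lost without Col-0 replicate 1 (1.04), sahy1 replicate 2 (1.24) or sahy1 replicate 3 (1.36), and that of EXPA7 without Col-0 replicate 3 (-0.98), sahy1 replicate 1 (-0.97) or sahy1 replicate 3 (-0.96). Without sahy1 replicate 3, 1 of the 21 was called.

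By chromosome, 12 of the 36 named members (33.3%) lie on chromosome 2, which holds 14.8% of the 7336 genes measured. Chromosome 1 holds 10 (27.8%, beside 25.9% of genes measured), chromosome 3 holds 5 (13.9%, beside 20.5%), chromosome 4 holds 4 (11.1%, beside 14.8%) and chromosome 5 holds 5 (13.9%, beside 24.0%). Of the 12 genes left out by family or name, 6 are on chromosome 2. Of 20 other named genes called higher in sahy1 against both wild types, 7 are on chromosome 2. Genes left out are among these 20, so the counts overlap and are not separate observations. The size of the overlap was not counted. SAHY1 itself is on chromosome 2. By gene number the 12 members run between AT2G18190 and AT2G47010. In the gene order of the TAIR10.1 annotation only AT2G19970 and AT2G19990, both CAP genes, lie within 20 genes of each other, with 1 gene between them.

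**Figure D5:**
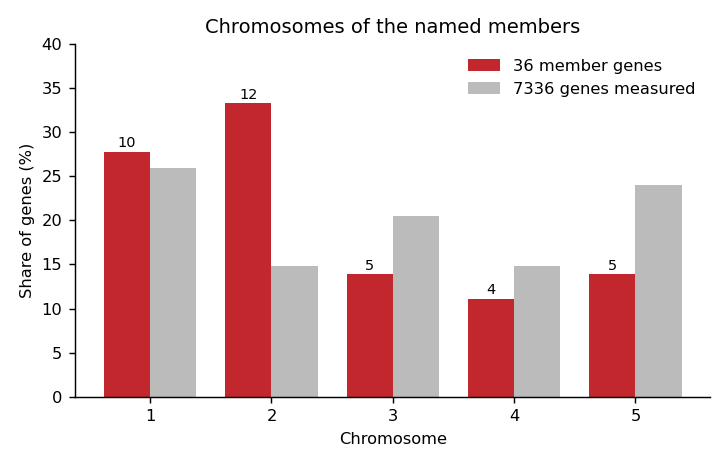
Bars give the share of genes on each of the 5 chromosomes (y axis, %), in red for the 36 named members with their number above the bar and in grey for the 7336 genes measured. Chromosome 2 holds 33.3% of the members and 14.8% of the genes measured; no test was made.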

How the data were processed

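Signals of ATH1 GeneChips were measured in total RNA of 12 root samples, 3 per group. The intensity values are MAS5 signals as the authors deposited them, linear and with the mean of each array at 500 after 2% of values were left out at each end. The submitters' notes name MAS5 and GeneSpring GX 10.0.1. For the MAS5 version and the genome build, the sources used here give nothing. From these values the members were found by the 2 thresholds, and 64 of 22810 probe sets, the controls, were left out.

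For tests, signals under 1 (46 to 333 per array) were set to 1 and log2 was taken. The filter asked that at least 1 group have all 3 of its arrays at or above the array's 40th percentile, and 13834 of 22746 probe sets passed. A limma fit (version 3.58.1, R 4.3.3, with eBayes) to the 12 arrays estimated the 4 group means. The p-values were adjusted by Benjamini-Hochberg over all probe sets that passed, and calls were made below 0.05 where the fold exceeded 2. The methods' unpaired test was run on the same values. The number of arrays limits the precision.

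The members and lists were chosen with earlier results of these data known, and the family lists after the members were seen. Genes were named through the platform table where it gives 1 gene (13513 probe sets, 59.4%), against 503 with several and 8730 with none. All 12 signals are given for the 25 named members with the largest margin and for members in a pathway list (none). Members called among the other groups, probe sets next to the threshold and list genes called in sahy1 against Col-0 are named too. Signals of 3 unnamed members of the largest margin, those of 253660_at and the family genes were added after their values were seen. Promoters and protein lengths were not analysed here. Alternatives were other scalings, 32 added to signals before log2, other filters and thresholds, a fit to 2 groups, a replicate block and leaving out each array. Python 3.11.15, pandas 2.3.3 and matplotlib 3.10.9 made tables and figures.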

Additional observations from a re-analysis of the deposited data

How the results depend on the processing

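The number of members followed the thresholds. It was 204 at the lower ratio tried and 27 at a ratio of 2. Leaving out 1 array, so that fewer arrays must pass, gave 79 to 120, with 120 without sahy1 replicate 2. Least signals of 50 and 200 and both scalings of the arrays gave counts within 1.5 times of 77. Of the 77, 68 were members after quantile normalization and 67 after median centring. The median log2 difference of the members tested was 1.29 to 1.56 against Col-0 under the other settings and 1.40 to 1.58 without 1 array. No member was called in SAHY1OE against Col-7 under the other settings, and 0 to 1 without 1 array. In Col-7 against Col-0, 4 to 7 were called without 1 array, 0 with the methods' unpaired test, and 3 among the 42 members with a mean at the 40th percentile outside sahy1, a limit chosen after seeing the data. Of the pathway genes, 3 were called in sahy1 against Col-0, 1 with no filter, 1 with a filter at the 60th percentile, 0 with the methods' unpaired test and 1 to 4 without 1 array. Of the family genes that are no members, 5 were called, with 3 when only probe sets above the 60th percentile were tested, fewer genes, and 5 to 6 without 1 array. With 32 added before log2, which shrinks differences of dim probe sets, AT5G14650 (-0.91) and 260408_at (-0.94) in Col-7 against Col-0 and EXPA7 (-0.98) in sahy1 against Col-0 were no longer past the fold of 2. With no filter, the calls of GH3.3, AT5G43450 and 260408_at were lost, and with the methods' unpaired test those of all 5 of these and of AT4G12500. Where no cause is named, the cause was not tested. No difference of a named gene changed sign.

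The main fit did not pair the samples by replicate number. Deviations of same-numbered arrays correlated at -0.0995 to 0.239, and those of other arrays at -0.256 to 0.25. Col-7 correlated with same-numbered SAHY1OE at 0.235, 0.0583 and 0.22 and with Col-0 at 0.193, 0.0413 and 0.239. With sahy1 the values were 0.0857, -0.0995 and -0.0866. Whether a replicate number marks a shared batch was not tested. With the replicate block 0 members were called in SAHY1OE against Col-7, 6 instead of 5 in Col-7 against Col-0, and 3 pathway genes in sahy1 against Col-0, so no count moved by over 1.5 times. Signals near background limit the low members: 28 of the 77 were below the 40th percentile on all 9 other arrays, and 6 could not be tested.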

Other observations

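The 2 extra genes of the pathway lists that were called in sahy1 against Col-7 were not called against Col-0. NDB2, an alternative NADH dehydrogenase of mitochondria, had signals of 1827, 1262 and 1756 in sahy1, against 773, 742 and 623 in Col-7 (log2 difference 1.17, limma adjusted p = 0.000476) and 1022, 807 and 1043 in Col-0 (0.75, limma adjusted p = 0.00599, fold under 2). Every sahy1 array was above every array of both wild types. AT1G71140, a MATE-type exporter, had signals of 135, 141 and 138 in sahy1, against 25.1, 22.1 and 43.9 in Col-7 (limma adjusted p = 1.22e-05, Col-7 arrays below the 40th percentile) and 100.3, 107.5 and 101 in Col-0 (0.42, limma adjusted p = 0.181). For this gene the wild types stood far apart, with Col-0 near sahy1. Its SAHY1OE arrays, at 87.7, 107.3 and 94.7, were also above every Col-7 array.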
